A study of Mus musculus with 35 samples.

Results

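The perineuronal net genes described here are 10 of the 52636 genes in the deposited count files. They were chosen by symbol as coding for the proteins and enzymes that build the net, namely the lecticans Acan, Bcan, Ncan and Vcan, the link proteins Hapln1 and Hapln4, tenascin-R (Tnr), the receptor-type phosphatase Ptprz1 and the hyaluronan synthases Has2 and Has3, by role rather than by value. All 10 symbols were matched to an Ensembl identifier of the files.

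A perineuronal net is a lattice of extracellular matrix that wraps the cell body and proximal dendrites of some neurons, most often fast-spiking interneurons that contain parvalbumin. Hyaluronan, made at the cell surface by hyaluronan synthases, is its backbone. Lecticans are chondroitin sulfate proteoglycans that bind hyaluronan at one end, link proteins lock this bond, and tenascin-R ties the other ends of the lecticans together. In the amygdala these nets have been studied above all for their part in the persistence of fear memories.

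Amygdala tissue of 19 female mice was sampled after a touchscreen task in which ambiguous cues are judged. The 8 C57BL/6J mice, an inbred strain, and the 11 B6D2F1N mice, hybrids of C57BL/6 and DBA/2 stock, lived in standard cages (9 mice) or in enriched housing (10 mice), in which the home cage was joined to a playground for 1 h per day, while standard-housed mice received a mock treatment. Training began on postnatal day 70 and housing on postnatal day 77 in every group, and all mice had cage mates of their own strain. The training took 37 to 90 days depending on how fast a mouse learned, followed by 5 test days, so that age at sampling was not the same in all mice. The paper describes C57BL/6J mice as slower to learn and therefore older than B6D2F1N mice, without statistical significance. The strain fits below were not adjusted for age or training time, whose part in them was not tested. Cells were cut with a laser from stained sections aimed at the basolateral nucleus, in a portion labelled anterior (16 libraries) and a portion labelled posterior (19 libraries), and 16 mice (6 C57BL/6J and 10 B6D2F1N) gave both. In C57BL/6J, 4 standard-housed mice gave an anterior and a posterior library each, and of 4 enriched mice 2 gave an anterior and 4 a posterior library. In B6D2F1N, 5 standard-housed mice gave both portions, and of 6 enriched mice 5 gave an anterior and 6 a posterior library.

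Libraries held 16938534 to 27352623 reads on genes. The section ranges given for the portions run against their anatomical order. Portions are named here as labelled, which order the labels follow was not tested, and an exchange would turn every sign between portions below. Markers of tissue next to the amygdala were far higher in the posterior libraries, where the summed level of 5 choroid plexus markers ran from 117 to 14199 CPM (read counts scaled to library size) against 5.78 to 929.6 CPM in anterior libraries. Markers of the basolateral amygdala (6 of 6 found) summed to 199 to 966 CPM in anterior and 115 to 936 CPM in posterior libraries. Rspo2 and Cyp26b1 were lower in the posterior portion in both strains. Lypd1 was higher there in C57BL/6J and in both strains together, but not at an adjusted p of at most 0.05 in B6D2F1N alone. Markers of parvalbumin neurons (6 of 6) summed to 161 to 399.8 CPM in anterior and 154 to 377 CPM in posterior libraries. In both libraries of B6D2F1N standard mouse 1, Xist, which is transcribed from the inactive X chromosome of females, had 0 counts, although every mouse is labelled female. This mouse was kept, and results are also given without it where they differ.

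Positions are on GRCm38. Ncan (chr8:70093085-70120873, minus strand) and Hapln4 (chr8:70083457-70090862, plus strand) are neighbours whose 3′ ends face each other across 2222 bases. Hapln1 (chr13:89539796-89611652, plus strand) and Vcan (chr13:89655312-89742509, minus strand) face each other across 43659 bases. Acan lies at chr7:79053483-79115099 (plus), Bcan at chr3:87987531-88000230 (minus), Tnr at chr1:159523769-159931729 (plus), Ptprz1 at chr6:22875502-23052916 (plus), Has2 at chr15:56665627-56694539 (minus) and Has3 at chr8:106870242-106884566 (plus). Exons of Tnr, Has2 and Has3 overlap exons of Gm38039, Has2os and Chtf8 on the opposite strand. Because the strand setting of the counting is not given in the sources used here, it is not known how reads from the shared bases were assigned.

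The RefSeq promoter table (GRCm38.p6) held 7 of the 10 members, all but Hapln4, Has2 and Has3. Shown are the bases before the start of Ncan (chr8:70120874-70121094, minus strand) and of Ptprz1 (chr6:22875252-22875501, plus strand), the members with entries whose levels differed between the portions, in opposite directions. Capitals mark the GC box, GGGCGG or its reverse complement CCGCCC.
Ncan: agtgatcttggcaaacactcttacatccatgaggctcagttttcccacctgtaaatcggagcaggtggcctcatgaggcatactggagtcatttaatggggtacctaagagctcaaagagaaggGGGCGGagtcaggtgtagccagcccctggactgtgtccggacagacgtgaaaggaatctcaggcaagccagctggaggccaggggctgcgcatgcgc
Ptprz1: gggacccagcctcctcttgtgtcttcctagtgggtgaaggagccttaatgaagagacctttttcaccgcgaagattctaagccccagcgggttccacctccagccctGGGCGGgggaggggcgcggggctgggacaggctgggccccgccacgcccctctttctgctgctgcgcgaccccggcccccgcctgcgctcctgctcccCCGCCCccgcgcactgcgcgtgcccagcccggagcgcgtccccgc
The 250 bases before the start held 6 CpG and 54.4% G and C in Ncan, close to the medians of 6 CpG and 52.4% over 32851 promoters, and 22 CpG and 71.6% in Ptprz1, where 85.2% of promoters held fewer CpG. The Acan promoter was the richest of the 7, with 26 CpG. The GC box stood in 5 members (Acan, Bcan, Ncan, Vcan and Ptprz1) and in 32.7% of all promoters. Searched on both strands in the same way, TATAAA was found only before Ncan, in the stretch that GENCODE places inside the gene and that is not printed (12.4% of all promoters), and TGACGTCA (1.55%), CACGTG (6.02%) and TAATCC (6.25%) were found in none of the 7. None of these motifs contains another.

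Levels were first compared between genes per length, as CPM per kb of exonic sequence. Ncan, coding for neurocan, was the highest member in every library of both portions, with a median of 162 CPM per kb in anterior and 98.8 CPM per kb in posterior libraries. In the anterior portion Hapln4 (31.4), Bcan (27.1), Ptprz1 (22.5) and Hapln1 (16.6 CPM per kb) followed, and Tnr (4.05) and Vcan (1.32) were lower still. Acan, which codes for aggrecan, the lectican most used as a marker of nets, had a median of 0.153 CPM per kb in anterior and 0.235 in posterior libraries. Ncan was 1062-fold above Acan by these anterior medians and 421-fold in posterior libraries.

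In the posterior portion the order was Ncan, Bcan (29.5), Ptprz1 (27.3), Hapln4 (12.0), Hapln1 (10.7), Tnr (4.80), Vcan (1.36), Acan (0.235), Has3 (0.175) and Has2 (0.0098 CPM per kb). Per kb of the longest transcript, Ptprz1 came second in both portions, at 39.8 and 48.2 CPM per kb. Neighbours in the middle of this order were not apart. Hapln4 was above Bcan in 11 of 16 anterior libraries, Bcan above Ptprz1 in 13 of 16 anterior and 12 of 19 posterior libraries, Hapln4 above Hapln1 in 11 of 19 posterior libraries, and Acan above Has3 in 9 of 19. By contrast, per kb of exonic sequence Hapln1 was above Tnr, Tnr above Vcan and Vcan above Acan in 35 of 35 libraries. The order of Hapln1 and Tnr rests on the division by length. In plain CPM Tnr was the higher in some posterior libraries, such as that of B6D2F1N enriched mouse 6 (80.5 against 42.6 CPM).

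**Figure D1:**
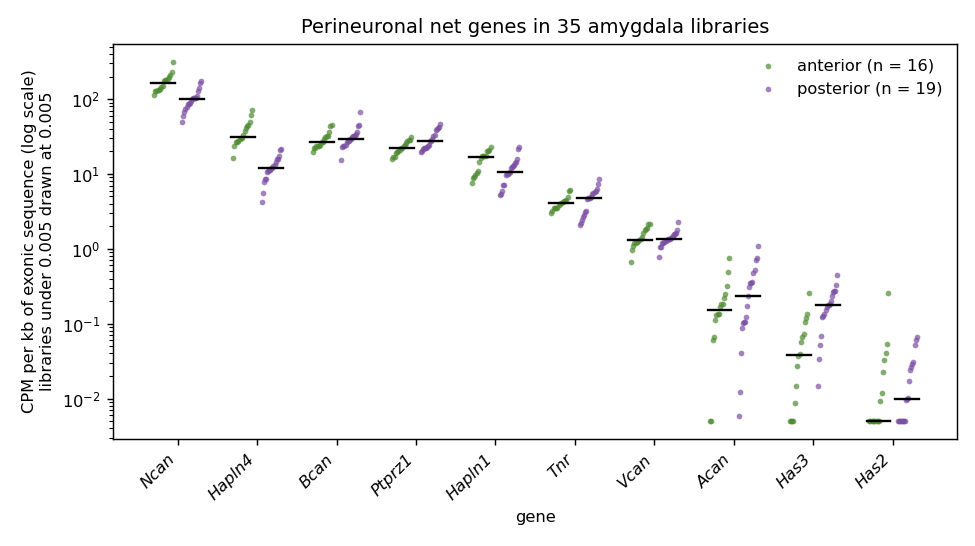
Level of each gene per library, in CPM per kb of exonic sequence on a log axis, for the 16 anterior (green) and 19 posterior (purple) libraries, with points ordered by value, the median as a bar and values under 0.005 drawn at 0.005. Ncan lies above the other members, Hapln4 drops from a median of 31.4 to 12.0 CPM per kb between the portions, and Acan, Has3 and Has2 lie at or under about 1 CPM per kb.

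The first question was whether the net genes differ between the portions of the amygdala, tested in the 16 mice with both, with the mouse as a block. Hapln4 and Ncan were lower in the posterior portion in both strains, and Ptprz1 was higher in C57BL/6J. At an adjusted p of at most 0.05, 3 of 10 members were called in C57BL/6J (1 higher, 2 lower), against 3.64% of the 25751 genes tested (1.54% higher, 2.1% lower). In B6D2F1N 2 of 10 were called, both lower, against 4% of 27761 genes (1.62% higher, 2.37% lower), and in all 16 mice together 3 of 10 (1 higher, 2 lower), against 8.6% of 29437 genes (3.91% higher, 4.69% lower). The median log2 difference over the 10 members was 0.324, -0.104 and 0.116, beside 0.0134, 0.148 and 0.118 over all genes.

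Hapln4 codes for a link protein that binds brevican and hyaluronan around axon terminals and cell bodies. In the 4 standard-housed C57BL/6J mice its anterior levels were 117, 277, 104 and 161 CPM, and its posterior levels in the same mice were 44.3, 34.1, 41.8 and 51.4 CPM. The enriched C57BL/6J mice 1 and 3 had 118 and 109 CPM in anterior and 81.7 and 43.9 CPM in posterior libraries. The portions did not overlap in these 6 mice. In B6D2F1N, the 5 standard-housed mice had 195, 169, 63.5, 128 and 115 CPM in anterior and 50.9, 84.2, 68.9, 16.4 and 21.6 CPM in posterior libraries. Mouse 3 of this group was the only mouse of the 16 in which the posterior level was higher, at 1.09 times the anterior level. The 5 enriched B6D2F1N mice with both portions had 92.1, 176, 105, 238 and 146 CPM (mice 1, 2, 3, 4 and 6) against 47.1, 56.6, 33.9, 30.4 and 42.9 CPM.

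Hapln4 thus fell by 1.52 on the log2 scale in C57BL/6J (SE 0.234, adjusted p = 0.000661), by 1.72 in B6D2F1N (SE 0.246, adjusted p = 0.000451) and by 1.63 in all mice (SE 0.188, adjusted p = 1.16e-06), to 0.322 of the anterior level. Over all libraries, the mean was 144.6 ± 56.1 CPM (SD, n = 16) in anterior and 48.5 ± 18.0 CPM (n = 19) in posterior libraries, and 15 of 16 anterior libraries lay above the highest posterior one. In every leave-one-mouse fit of both strains Hapln4 remained past the threshold.

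Ncan codes for a lectican made by neurons and astrocytes. Its anterior levels were 810 at the lowest, 1168 at the median and 2254 CPM at the highest, and its posterior levels 359.5, 711 and 1255 CPM. The posterior library was the lower in 16 of 16 mice, with a ratio of 0.277 to 0.994, and 8 of 16 anterior libraries lay above the highest posterior library. The log2 difference was -0.62 in C57BL/6J (SE 0.164, adjusted p = 0.0424), -0.89 in B6D2F1N (SE 0.161, adjusted p = 0.00315) and -0.78 in all mice (SE 0.121, adjusted p = 7.79e-05). In C57BL/6J the call was lost without standard mouse 1 (adjusted p = 0.252), 2 (0.0531), 3 (0.101) or 4 (0.0568) or enriched mouse 3 (0.14), with filterByExpr (0.0619) and without the mouse block (0.176), while in B6D2F1N it was made without any 1 of the 10 mice.

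Ptprz1, a receptor phosphatase whose secreted form, phosphacan, is a chondroitin sulfate proteoglycan of glia, ran the other way. Its levels were 223, 321 and 439.7 CPM (lowest, median, highest) in anterior and 276, 389 and 669.6 CPM in posterior libraries, and 7 posterior libraries lay above every anterior one. The posterior level was higher in 6 of 6 C57BL/6J mice, by 1.12 to 2.09 times, and in 6 of 10 B6D2F1N mice. The log2 difference was 0.60 in C57BL/6J (SE 0.152, adjusted p = 0.0315), 0.21 in B6D2F1N (SE 0.134, adjusted p = 0.495) and 0.37 in all mice (SE 0.106, adjusted p = 0.0283). The strains were not shown to differ in this, as the interaction was -0.40 (SE 0.209, adjusted p = 1). In C57BL/6J the call was lost without standard mouse 1 (adjusted p = 0.0712), 3 (0.136) or 4 (0.158) or enriched mouse 3 (0.0661), and without the mouse block (0.108). In all mice it was lost without the block (0.39, adjusted p = 0.0502), without B6D2F1N standard mouse 1 (0.35, adjusted p = 0.0521) and without the 2 mice whose posterior library held over 10000 CPM of choroid plexus markers (0.33, adjusted p = 0.0714), with a log2 difference close to 0.37 each time.

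**Figure D2:**
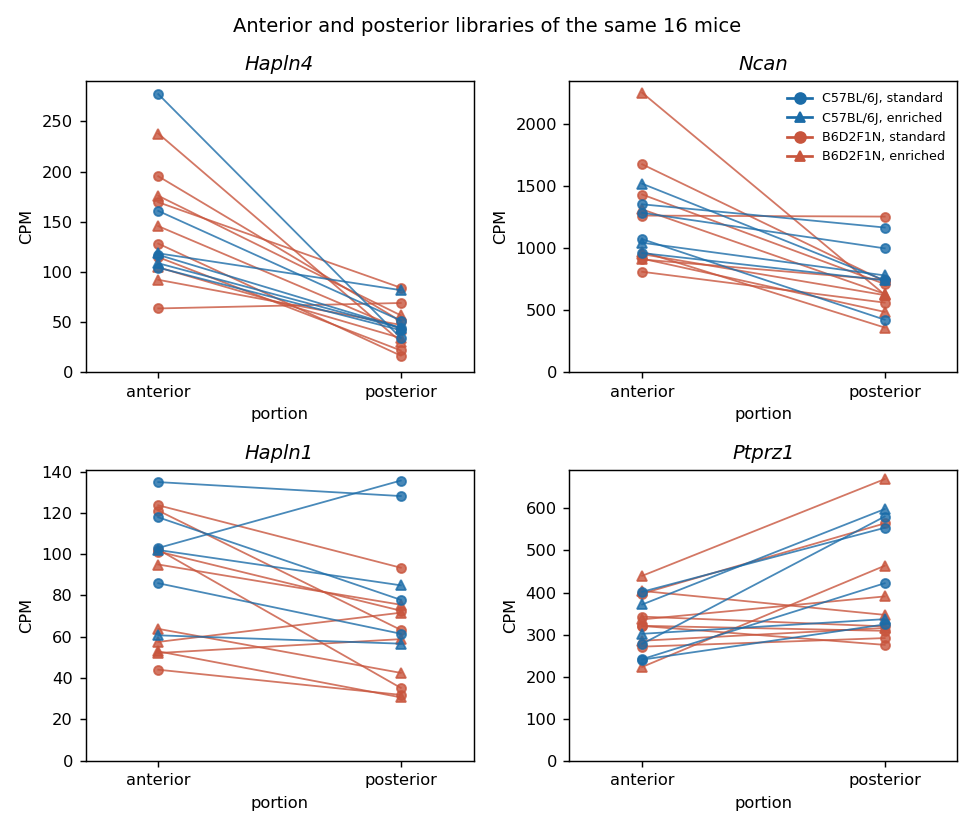
CPM of Hapln4, Ncan, Hapln1 and Ptprz1 in the anterior and posterior library of each of 16 mice, joined by a line, with strains by colour and standard or enriched housing by circle or triangle. Hapln4 falls in 15 and Ncan in 16 of 16 mice, Hapln1 falls in 13 and Ptprz1 rises in 12.

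Hapln1, the link protein that is most widespread in nets, had 44.1, 98.1 and 135 CPM (lowest, median, highest) in anterior and 30.7, 63.4 and 136 CPM in posterior libraries. It was lower in the posterior library of 13 of 16 mice. The log2 difference of -0.37 in all mice (SE 0.119) had an adjusted p of 0.0532, so that it did not pass, whereas robust empirical Bayes (0.0479), filterByExpr (0.0465) and DESeq2 (0.0236) put it past the threshold. DESeq2 called 11.7% of all genes in this fit. In C57BL/6J the difference was -0.19 (adjusted p = 0.721) and in B6D2F1N -0.50 (adjusted p = 0.0962, and 0.0451 without enriched mouse 2).

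The other proteoglycans and tenascin-R gave no call between the portions. Bcan, the lectican brevican, had medians of 109.97 CPM in anterior and 119.9 CPM in posterior libraries, with a log2 difference in all mice of 0.13 (95% interval -0.11 to 0.36). Vcan, versican, which is made by oligodendrocyte precursors among other cells, had medians of 19.1 and 19.7 CPM and a difference of 0.01 (-0.27 to 0.30). Tnr, which comes from oligodendrocytes and some interneurons, had medians of 52.1 and 61.8 CPM and a difference of 0.11 (-0.20 to 0.41). These intervals exclude a change of 1 on the log2 scale.

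Acan was too sparse for a firm statement, with 0 to 97 counts in anterior and 1 to 186 counts in posterior libraries. It was higher in the posterior library of 5 of 6 C57BL/6J mice and 5 of 10 B6D2F1N mice. The log2 difference was 1.77 in C57BL/6J (SE 0.764, adjusted p = 0.298) and -0.34 in B6D2F1N (SE 0.944, adjusted p = 0.912), and the interaction of -2.15 had an adjusted p of 1.

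Among the hyaluronan synthases, Has2 had at most 24 counts in any library and 0 counts in 17 of 35, where 3 counts, the limit that a count of 0 allows, would be 0.11 to 0.177 CPM. Has3 had 0 to 32 counts in anterior and 2 to 56 in posterior libraries, and 4 anterior libraries were at 0. Has3 was higher in the posterior library of 13 of 16 mice, with a log2 difference in all mice of 2.08 (SE 0.801, adjusted p = 0.12). DESeq2 put this value past the threshold (adjusted p = 0.031). No difference of Has2 was detectable at this depth.

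**Figure D3:**
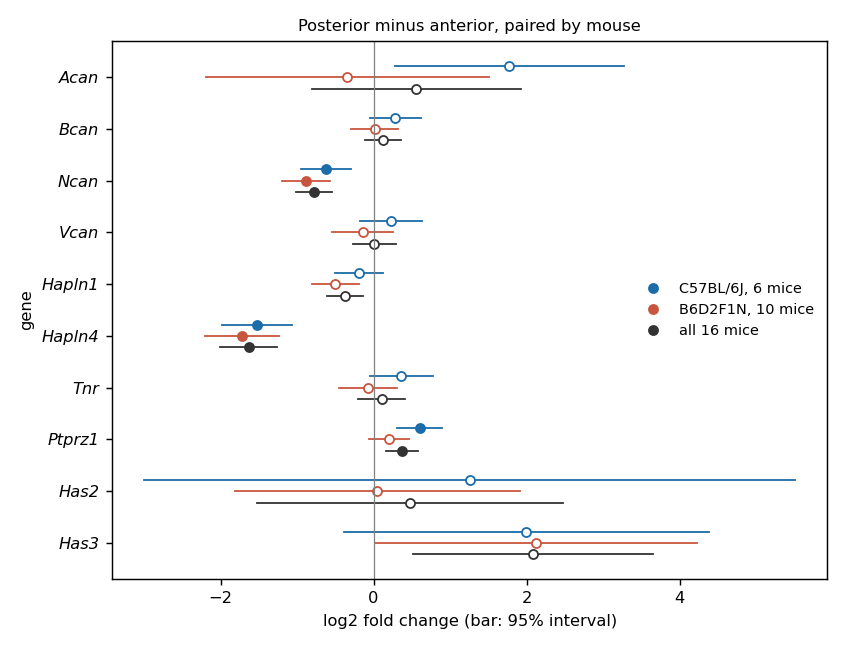
Log2 difference, posterior minus anterior, of each gene in 6 C57BL/6J mice, 10 B6D2F1N mice and all 16, with the 95% interval as a bar and filled points where the adjusted p was at most 0.05. Hapln4 and Ncan lie to the left of 0 in all 3 fits and Ptprz1 to the right, and the bars of Acan, Has2 and Has3 are wide.

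The cell makeup of the libraries moved together with these differences, and its part in them was not tested. In bulk tissue fewer cells of a type and less RNA per cell cannot be told apart. In all mice, 4 of 6 excitatory neuron markers were lower and 1 higher in the posterior portion (summed level 1870 to 4543 CPM in anterior and 1095 to 5573 CPM in posterior libraries), while 4 of 6 astrocyte markers were higher (932 to 1679 against 1327 to 3002 CPM). All 5 choroid plexus and all 5 ependymal cell markers and 2 of 6 meningeal fibroblast markers were higher. Of 6 parvalbumin neuron markers Kcnc1 was lower in all mice, Pvalb was lower in C57BL/6J (-1.42, adjusted p = 0.0153) and Tac1 higher in B6D2F1N (1.17, adjusted p = 0.0358). Vip, 1 of 6 inhibitory neuron markers (-0.90, adjusted p = 0.00041), and Flt1, 1 of 6 endothelial cell markers (-0.47, adjusted p = 0.0207), were lower in all mice. None of 6 oligodendrocyte precursor markers passed. Without the 2 mice richest in choroid plexus markers, Hapln4 (-1.69, adjusted p = 5.25e-06) and Ncan (-0.72, adjusted p = 0.000604) were past the threshold in all mice and both were in B6D2F1N (adjusted p = 0.0021 and 0.0306). The mice left still had 117 to 4502 CPM of these markers in posterior libraries, against 5.78 to 52.7 CPM in anterior libraries. This run therefore cannot separate portion from choroid plexus content.

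Other genes of the net and its sugar chains came from lists of pathway genes, whose counts stand beside the 8.6% of all genes called in the fit of all mice. Of 10 matrix partners, 2 were higher and 3 lower in the posterior portion of all mice. Nptx2, a pentraxin that gathers glutamate receptors at synapses on net-bearing interneurons, fell by 3.50 on the log2 scale (SE 0.29, adjusted p = 6.72e-09), from a median of 66.4 to 6.15 CPM. Sema3a, a secreted guidance cue that binds to nets, fell by 2.48 (SE 0.263, adjusted p = 3.95e-07), from 135 to 19.7 CPM, and Cspg5 by 0.44 (adjusted p = 0.00514). Otx2, a homeoprotein that is taken up by net-bearing neurons and made in choroid plexus, rose by 6.32 (SE 1.05, adjusted p = 0.000161), from a median of 0 to 3.12 CPM, beside the choroid plexus markers given above. Hapln3 rose by 1.53 (adjusted p = 0.0474), and in C57BL/6J alone Tnc, tenascin-C, fell by 1.52 (adjusted p = 0.00339). The strain interaction of Tnc was 1.38 (SE 0.541, adjusted p = 1).

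Of 15 enzymes that make chondroitin sulfate, 14 were tested, and 3 were higher and 2 lower in all mice. Chst15, which adds a second sulfate to make the E unit of the chain, fell by 1.48 (SE 0.19, adjusted p = 5.5e-06), from a median of 46.4 to 14.4 CPM. Xylt1, which starts the chain, fell by 0.53 (adjusted p = 0.0462), while Csgalnact1 (0.46), Chst7 (1.75) and Ust (0.48) rose. Of 19 matrix-degrading enzymes and inhibitors, 18 were tested and 1 passed in all mice, no larger a share than over all genes (8.6%). This was Adamts15, a protease of lecticans, which rose by 2.16 (adjusted p = 0.0441). In C57BL/6J the call in this list was Timp2, an inhibitor of metalloproteinases (0.67, adjusted p = 0.017). Of 5 receptors for chondroitin sulfate 2 were lower, Rtn4r (-1.32, adjusted p = 5.29e-06) and Ptprs (-0.44, adjusted p = 0.0108).

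The second question was whether the net genes differ between the strains. No member passed the threshold in any of 6 fits, where edgeR called 0.37 (standard anterior), 0.373 (standard posterior), 0.0639 (enriched anterior), 0.394 (enriched posterior), 0.615 (anterior, both housings) and 0.858% (posterior, both housings) of all genes. Before adjustment, a p under 0.05 was found for 1 of 9 members in the standard posterior (2605 of 25171 genes), 2 of 10 in the enriched posterior (2336 of 25640) and 2 of 10 in the posterior libraries of both housings (3064 of 27871), and for none in the others. DESeq2 called 1 member, in the enriched posterior fit, where it called 1.33% of all genes, and 0 in the other 5.

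That member was Acan. The 4 enriched C57BL/6J mice had 8.09, 3.59, 0.3 and 5.27 CPM in the posterior portion, and the 6 enriched B6D2F1N mice 0.0926 at the lowest, 0.776 at the median and 0.926 CPM at the highest. All C57BL/6J values but that of mouse 3 lay above every B6D2F1N value. The log2 difference, B6D2F1N minus C57BL/6J, was -2.68 (SE 0.755, adjusted p = 0.261, DESeq2 adjusted p = 0.023). In standard housing it was -0.79 (SE 0.763, adjusted p = 0.833), with 2.68, 5.72, 2.3 and 2.65 CPM in the C57BL/6J mice and 3.86, 2.61, 1.3, 1.75 and 0.0439 CPM in the B6D2F1N mice, whose ranges overlapped. The strain by housing interaction of Acan in the posterior portion was -1.88 (SE 1.13, adjusted p = 0.7). With both housings the strain difference was -1.81 (SE 0.599, adjusted p = 0.213), and in the anterior portion 0.33 (SE 0.841, adjusted p = 1). The choroid plexus marker Kl (1 of 5) was higher in B6D2F1N in the posterior portion with both housings, and this was the only marker of any list that passed in a strain fit. In enriched posterior libraries the summed oligodendrocyte markers did not overlap between the strains, at 17876 to 27852 CPM in C57BL/6J and 6805 to 16298 CPM in B6D2F1N, and their part in the Acan values was not tested.

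In the posterior portion Bcan had a log2 difference of -0.43 (SE 0.163, adjusted p = 0.289), at 112 ± 29.9 CPM (SD, n = 11) against 152.6 ± 52.9 CPM (n = 8), and it did not pass. Hapln1 in standard posterior libraries differed by -0.76 (SE 0.324, adjusted p = 0.47). In the posterior libraries of both housings all 7 members other than Acan, Has2 and Has3 had a lower fitted level in B6D2F1N. Their log2 differences were -0.43 to -0.05, beside a median of 0.023 over all genes, and their 95% intervals lay between -0.83 and 0.45. Several of the 7 vary together across libraries (Hapln1 with Ptprz1, r = 0.777), so their shared sign is not 7 separate observations. In anterior libraries 4 of the 7 differences were positive and 3 negative, between -0.22 and 0.25, with intervals from -0.61 to 0.70.

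The third question was whether enriched housing changed the net genes. No member passed in any of 6 fits, and edgeR called 0 genes in 5 of these fits and 4 (0.0163%) in the posterior libraries of C57BL/6J, with 1418 to 2515 genes at a p under 0.05 before adjustment. DESeq2 called 8 to 319 genes, no member among them. Before adjustment 2 of 10 members had a p under 0.05 in the posterior libraries of C57BL/6J (2515 of 24526 genes), 1 of 10 in the anterior libraries of B6D2F1N (1553 of 24639), 1 of 10 in the anterior libraries of both strains (1665 of 26353) and 1 of 10 in their posterior libraries (2371 of 27871), and none in the other fits. The background is thus 0% in the other 5 fits. The enriched anterior group of C57BL/6J held 2 mice.

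Hapln1 had the smallest p among the members in the anterior libraries of both strains. Its levels in standard housing were 85.9, 135, 118 and 103 CPM in C57BL/6J and 101 to 124 CPM in 4 of 5 B6D2F1N mice, mouse 3 having 44.1 CPM. In enriched housing they were 60.7 and 102 CPM in C57BL/6J and 52.2 to 95 CPM in 5 B6D2F1N mice. The ranges overlapped, and the log2 difference was -0.56 (SE 0.194, adjusted p = 0.79). In the posterior libraries it was -0.75 in C57BL/6J (SE 0.282, adjusted p = 0.444) and 0.01 in B6D2F1N (SE 0.302, adjusted p = 0.999), and the strain by housing interaction was 0.77 (SE 0.451, adjusted p = 0.692). The summed basolateral amygdala markers of posterior C57BL/6J libraries did not overlap between housings, at 603 to 936 CPM in standard and 183 to 592 CPM in enriched mice. In B6D2F1N they overlapped. Their part in the Hapln1 values was not tested.

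**Figure D4:**
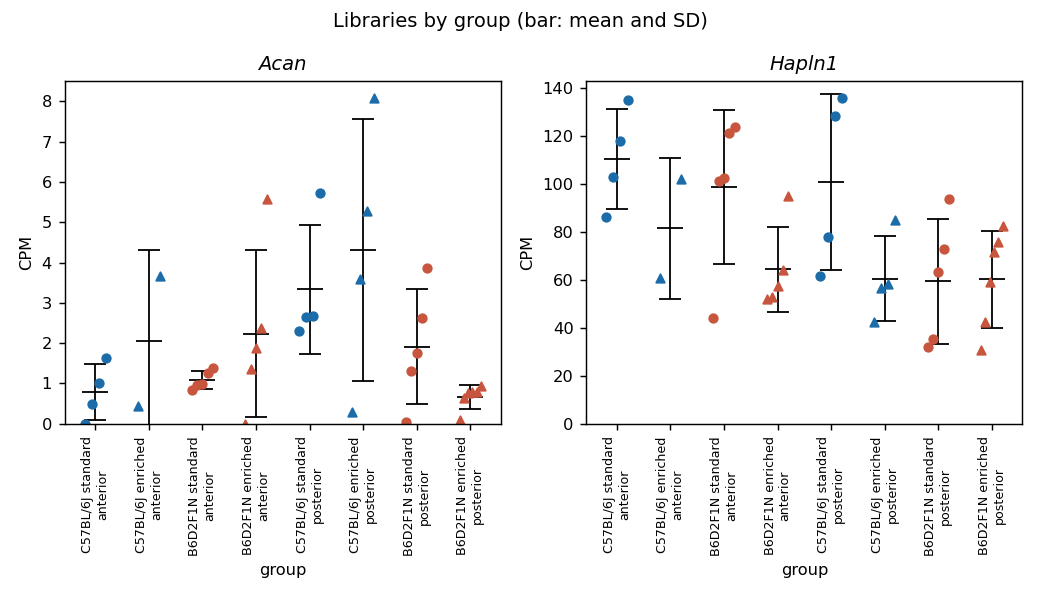
CPM of Acan and Hapln1 in every library of the 8 groups, with C57BL/6J in blue and B6D2F1N in red, standard housing as circles and enriched housing as triangles, and the mean and SD as a bar that is cut at 0. Acan lies at 0.3 to 8.09 CPM in the enriched posterior C57BL/6J mice and at 0.0926 to 0.926 CPM in their B6D2F1N counterparts, and Hapln1 in anterior libraries has lower means in enriched than in standard housing in both strains.

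Bcan differed by 0.37 between housings in posterior libraries (SE 0.163, adjusted p = 0.569), by 0.53 in C57BL/6J and 0.24 in B6D2F1N. In posterior libraries of C57BL/6J Mbp, 1 of 7 oligodendrocyte markers, was higher in enriched housing, and the 7 markers summed to 7967 to 12626 CPM in standard and 17876 to 27852 CPM in enriched mice. Its part in the values of that strain was not tested. Ncan differed by -0.36 (SE 0.192, adjusted p = 0.637) in posterior and 0.08 (SE 0.198, adjusted p = 0.999) in anterior libraries. Hapln4 differed by 0.13 (95% interval -0.35 to 0.60) in posterior and -0.07 (-0.57 to 0.43) in anterior libraries. With both strains, the 95% intervals of the 7 members other than Acan, Has2 and Has3 lay between -0.94 and 0.48 in anterior libraries. In posterior libraries they lay between -0.77 and 0.69. A change of 1 on the log2 scale lay outside each of these pooled intervals, but this does not hold within each strain. In C57BL/6J the intervals ran from -1.22 to 0.94 (anterior) and from -1.30 to 1.01 (posterior). In B6D2F1N they ran from -1.12 to 0.74 (anterior) and from -0.91 to 0.85 (posterior).

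**Figure D5:**
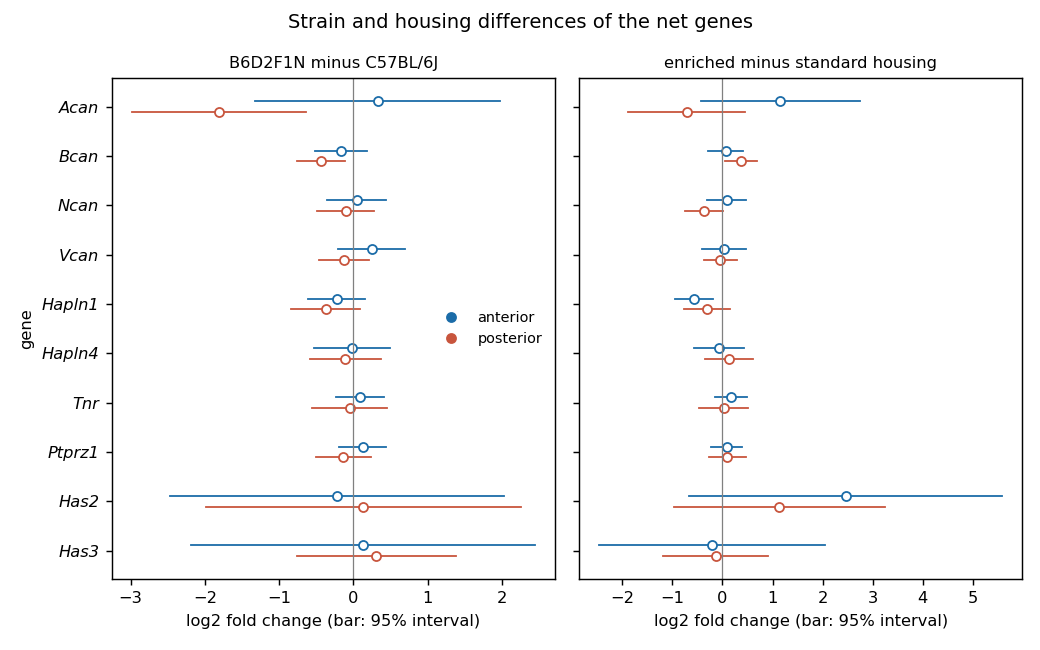
Log2 differences of the 10 genes between strains (left, B6D2F1N minus C57BL/6J, both housings) and between housings (right, enriched minus standard, both strains) in anterior (blue) and posterior (red) libraries, with the 95% interval as a bar. No point is filled, since no gene had an adjusted p of at most 0.05, and Acan in posterior libraries lies at -1.81 in the left panel.

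The last question was whether portion, strain and housing act on the net genes differently in combination. In all 4 interaction fits edgeR called 0% of genes and 0 of 10 members, with 871 (region by strain), 968 (region by housing), 1576 (strain by housing, anterior) and 2335 genes (strain by housing, posterior) at a p under 0.05 before adjustment, no member among them, and DESeq2 called 0, 3, 2 and 16 genes. Hapln4 had interactions of -0.20 (SE 0.375) with strain and 0.21 (SE 0.362) with housing. For Ncan the region by housing interaction was -0.45 (SE 0.227, adjusted p = 1), with a median posterior to anterior ratio of 0.693 in 5 standard-housed and 0.481 in 5 enriched B6D2F1N mice.

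Genes most alike in pattern were sought by the Pearson correlation of log2 CPM centred on the group means over 35 libraries, among 11703 genes with a mean of at least 5 CPM. They share the libraries and their depth, so the values are a description. Among the nearest to Ncan were Cntn1 (r = 0.919), coding for the adhesion protein contactin-1, and Scn2b (0.907). Nearest to Ptprz1 were Sparcl1 (0.879), Clu (0.856) and Tmtc4 (0.847), to Hapln1 Tmem19 (0.9), Slc35a5 (0.884) and Gpm6a (0.883), and to Hapln4 Nell1 (0.812), Galnt9 (0.804) and Sstr3 (0.797). Tnr was nearest to Astn1, Slc7a14 and Spon1 (0.833 to 0.836), Bcan to Ncln, Gpr37l1 and Esam (0.778 to 0.816), Vcan to Mpg, Stard3 and Cyhr1 (0.613 to 0.725) and Acan to Ptges2, Ptchd4 and G6pdx (0.651 to 0.68). No member stood among the 3 nearest genes of another. Among the members, the closest pairs were Hapln1 with Ptprz1 (0.777), Ncan with Hapln1 (0.767) and Ncan with Tnr (0.699).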

How the data were processed

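Libraries from 35 laser-captured amygdala samples were sequenced as single reads of 72 bases. Per the labels and the methods of the study, the authors used bcl2fastq for demultiplexing, Trimmomatic 0.38 for trimming, HISAT2 2.1.0 for alignment (GRCm38) and HTSeq 0.11.2 to count reads per gene. The deposited values are raw read counts per Ensembl gene, and 5 tallies of unassigned reads were left out. The annotation release and strand setting are not given in the sources used here. Symbols and positions came from GENCODE M21, in which 52489 of 52636 identifiers were found.

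Genes with at least 10 counts in a comparison were tested with edgeR 4.0.16 (TMM, quasi-likelihood F test, R 4.3.3), p-values were adjusted by Benjamini-Hochberg over all genes, and the threshold was an adjusted p of 0.05. SE is the log2 difference divided by the square root of F. Portions were compared with the mouse as a block. CPM values are TMM-scaled, and log2 CPM carries a prior count of 2. DESeq2 1.42.0 was the second test. The mouse identifiers in the labels pair the portions, and the deviations of a mouse's libraries from their group means correlated with a median r of 0.035 (-0.0864 to 0.202) over 17150 genes. No 2 of the 595 pairs of libraries held identical counts. P-values of the strain and housing fits measure the spread of levels between mice. Those between portions, and of the interactions with portion, measure how the posterior minus anterior difference varies from mouse to mouse.

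Members, lists and tests were chosen with earlier results of these data known. List genes are named where 6 or fewer passed, otherwise the 3 smallest p-values per direction. One gene alike in pattern to a member is not reported here. Limits for counts of 0 cover counting error only. Fits were tested on simulated counts. Alternatives were DESeq2, its size factors, filterByExpr, no minimum, robust empirical Bayes, no mouse block (portions only), CPM by library total and length of the longest transcript. Each mouse was left out in turn only in fits within 1 strain or 1 housing. Fits pooling strains or housings, and the interactions with portion, were rerun without B6D2F1N standard mouse 1 but not without each other mouse. The strain by housing interactions had no run without a mouse.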

Additional observations from a re-analysis of the deposited data

Results flagged for a closer look

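Of 70 sets of a gene and a group of 4 to 6 libraries, 12 had 1 library far from the others by a gap rule. The rule flags about 1 in 20 by chance only for independent, normally spread values. Sets near 0 CPM are not of that kind, and where all other libraries are at 0 any read is flagged. The 12 sets are therefore a list to look at and not an excess over chance. In B6D2F1N standard posterior libraries, mouse 1, whose libraries hold no Xist reads, had 1255 CPM of Ncan against 561 to 745 CPM in the others and 564 CPM of Ptprz1 against 276 to 319 CPM. Acan was at 5.72 CPM in C57BL/6J standard posterior mouse 2 (others 2.30 to 2.68) and at 0.0926 CPM in B6D2F1N enriched posterior mouse 4 (others 0.651 to 0.926). Bcan was at 97.0 CPM in C57BL/6J standard posterior mouse 3 (others 131 to 137) and at 185 CPM in B6D2F1N enriched posterior mouse 1 (others 93.5 to 120). Hapln1 was at 44.1 CPM in B6D2F1N standard anterior mouse 3 (others 101 to 124) and at 95 CPM in B6D2F1N enriched anterior mouse 4 (others 52.2 to 63.9). Has2 was at 0.228 CPM in C57BL/6J standard anterior mouse 3 and at 0.0971 CPM in B6D2F1N standard anterior mouse 1, with the others at 0, and at 1.10 CPM in B6D2F1N enriched anterior mouse 3 (others 0 to 0.173). Has3 was at 1.62 CPM in B6D2F1N standard anterior mouse 5 (others 0 to 0.418).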

How the results depend on the processing

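No log2 difference of a member changed sign past the threshold in any alternative run. Between portions, Hapln4 was called in every alternative run and Ncan in every one run in B6D2F1N and in all mice. DESeq2 called 1512 genes in C57BL/6J and 1994 in B6D2F1N, and 5 members in all mice, where it called 11.7% of all genes. Without the replicate block, that is without pairing by mouse, Hapln4 was past the threshold in C57BL/6J. Ncan (adjusted p = 0.176) and Ptprz1 (adjusted p = 0.108) were not. Without the 2 mice high in choroid plexus markers, chosen after seeing the data, 631 genes were called in B6D2F1N. Between strains, DESeq2 called 257 genes (standard anterior), 392 (standard posterior), 137 (enriched anterior), 342 and 1 member (enriched posterior), 358 (anterior) and 532 (posterior), and no minimum count gave 57 in enriched anterior libraries. Between housings, DESeq2 called 100 and 319 genes in C57BL/6J anterior and posterior libraries (274 and 112 with no minimum count), 8 and 14 in B6D2F1N, and 70 and 8 with both strains, and filterByExpr gave 1 in posterior libraries of both strains. For interactions, no minimum count gave 2 genes (region by strain), and DESeq2 gave 3 (region by housing), 2 and 16 (strain by housing, anterior and posterior). Leaving out 1 mouse gave 602 to 1070 genes and 1 to 3 members between portions in C57BL/6J, and 770 to 1220 genes and 2 to 3 members in B6D2F1N. For strains it gave 60 to 83 (standard anterior), 59 to 166 (standard posterior), 1 to 15 (enriched anterior) and 68 to 86 genes (enriched posterior), and for housings 0 to 172 in C57BL/6J posterior and 0 to 10 in B6D2F1N posterior libraries. The cause of these differences was not tested. Depth limits Acan, Has2 and Has3.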
